A study of Mus musculus with 6 samples.

Results

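Immediate early genes are transcribed within minutes of a growth factor, cytokine or stress signal, before any new protein is made. Many encode transcription factors: the FOS proteins pair with JUN proteins through a leucine zipper to form AP-1, which binds DNA at AP-1 elements, while EGR1 is a zinc finger factor switched on by the ERK pathway through the serum response factor SRF. In tumors, AP-1 is known both from the cancer cells, where the FOS relative FOSL1 follows ERK activity, and from macrophages, where CSF1R itself signals through ERK. Described here are 10 such genes, *Fos*, *Fosb*, *Fosl1*, *Fosl2*, *Jun*, *Junb*, *Jund*, *Egr1*, *Atf3* and *Ier2*. They were taken by name from a table of 54309 mouse gene identifiers, of which 24056 had a read in any tumor; each of the 10 was found once, and 10 of 10 passed the minimum mean of 10 normalized counts with which 13963 genes were tested.

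The RNA came from whole subcutaneous tumors of MCA205, a mouse fibrosarcoma line induced by methylcholanthrene, grown in female C57BL/6J mice, 7 weeks old when the cells were placed under the skin of the right flank. The Control group, 3 tumors, drank milliQ water. The FF-10101 group, 3 tumors, drank water with FF-10101 at 0.1 mg/mL from day 1. FF-10101 is a kinase inhibitor made against FLT3 that also blocks CSF1R by a covalent bond, and the comparison asks how the tumor responds on day 8, when all 6 tumors were taken. Since a value sums all cells of the tissue, fewer cells of a type and less RNA per cell cannot be told apart. Normalized counts are reads divided by a size factor per tumor, and a log2 fold change is FF-10101 minus Control on log2(normalized count + 1), from limma over all genes tested. The added 1 shrinks fold changes where reads are few.

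Total reads per tumor lay between 9143806 and 13258258, and the 3 replicates of a group are separate tumors. The mesenchymal markers of a fibrosarcoma, 9 of 9, were read in every group, with a summed level of 125765 to 302451 normalized counts in the control tumors and 245600 to 347882 in the FF-10101–treated tumors. Control tumor 1 stood apart from the other control tumors. Its sum of 6 endothelial markers was 5181 normalized counts against 1966 and 1359 in control tumors 2 and 3 and 4974 to 5563 in the FF-10101–treated tumors, and its sum of 6 interferon response genes was 64567 against 17204 and 14055 and 71395 to 88516. That tumor was picked out after these values were seen, and its total reads, 9643535, lay inside the range above. Its 2 sums lie near or within the treated range, so leaving it out widens such differences by construction. The fold changes of the 10 genes are given with and without that tumor. Adjusted p-values without it, here and below, describe that choice and are no independent test.

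With all 6 tumors, 0 of the 10 immediate early genes passed an adjusted p of 0.05 in either direction with limma and Benjamini-Hochberg adjustment, where 0.0286% of all genes tested were called higher and 0.0143% lower. With limma-voom on the reads, 0 of the 10 passed as well. At an unadjusted p of 0.05, 2 of the 10, *Egr1* and *Fosl2*, were higher, against a background of 8.77%, and 0 were lower, against 7.49%. By their means, 5 members were higher after FF-10101 (*Egr1*, *Fosl2*, *Atf3*, *Fos* and *Fosb*) and 5 were lower (*Fosl1*, *Ier2*, *Junb*, *Jund* and *Jun*). The 5 signs of each kind were the same when the tumors were scaled to the 75th percentile or quantile normalized. The median log2 fold change was 0.081 over the members and 0.020 over all genes tested, and 0 of 10 had an absolute log2 fold change above 1. The sign of the members' median was not stable, at −0.028 under quantile normalization and 0.39 without control tumor 1. The counts changed with 1 tumor. Without control tumor 1, 5 of the 10 passed an adjusted p of 0.05: *Egr1*, *Fosl2*, *Atf3* and *Fos* were higher, where 12.0% of all genes were called higher, and *Fosl1* was lower, where 9.88% were called lower.

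**Figure D1:**
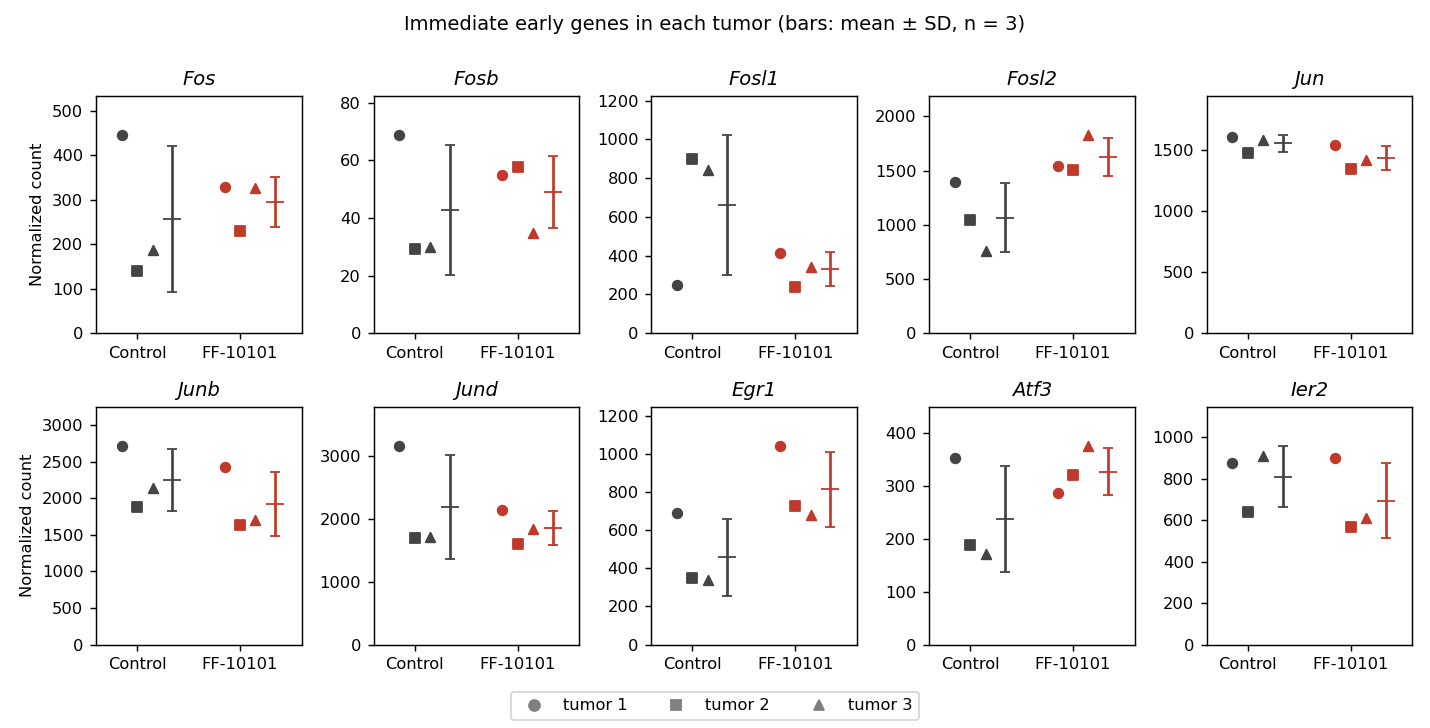
Normalized counts (y axes, from 0) of the 10 genes in each Control and FF-10101–treated tumor; circles, squares and triangles are tumors 1, 2 and 3 of a group, and the lines give mean ± SD (n = 3). For *Fos*, *Fosb*, *Fosl1* and *Atf3* control tumor 1 (circle) lies away from control tumors 2 and 3, and for *Fosl2* every treated tumor is above every control tumor.

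In the bases searched, the promoters of the members held few exact copies of the elements these factors bind. The RefSeq table (build GRCm38.p6) had an entry for 7 of the 10 genes; *Fosl1*, *Egr1* and *Ier2* had none. In the 250 bases before the start, both strands were searched for the AP-1 element TGACTCA, the CRE TGACGTCA, the variant TGACATCA, the EGR sites GCGGGGGCG and GCGTGGGCG, the STAT site TTCCNGGAA and the CArG box bound by SRF. An EGR site GCGGGGGCG was found in 2 of the 7, *Fosb* and *Fosl2*, and in 2.56% of 27025 promoters of the same length. This site holds G and C alone. G and C made up 68.8% of the *Fosb* and 64.4% of the *Fosl2* promoter, where the median promoter had 52%. The share was not compared among promoters of like G and C content. The variant TGACATCA was found in *Jun*, and in 3.02% of all promoters. The AP-1 element, the CRE, GCGTGGGCG, the STAT site and the CArG box were found in 0 of the 7, and in 4.43%, 1.62%, 0.54%, 0.914% and 1.4% of all promoters. Bases farther from the start were not searched, so sites there are not excluded. The 3 promoters with a match are shown because they set the FOS relative whose groups did not overlap, *Fosl2*, beside the least abundant member, *Fosb*, and the steadiest, *Jun*; capitals mark the matches. *Fosl2* is at chr5:32136222-32136471 on the plus strand, *Fosb* at chr7:19310046-19310295 and *Jun* at chr4:95052223-95052472, both on the minus strand, all GRCm38.p6 and read 5′ to 3′ along the gene.
Fosl2: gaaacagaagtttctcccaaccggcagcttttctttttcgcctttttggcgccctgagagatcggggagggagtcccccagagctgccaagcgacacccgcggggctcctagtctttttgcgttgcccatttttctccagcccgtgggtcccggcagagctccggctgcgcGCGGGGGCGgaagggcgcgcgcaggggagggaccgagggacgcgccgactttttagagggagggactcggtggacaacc
Fosb: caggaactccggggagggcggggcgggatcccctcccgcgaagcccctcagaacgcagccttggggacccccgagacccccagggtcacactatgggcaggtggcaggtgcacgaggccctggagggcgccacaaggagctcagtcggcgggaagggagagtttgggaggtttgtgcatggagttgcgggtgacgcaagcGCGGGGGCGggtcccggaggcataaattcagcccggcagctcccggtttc
Jun: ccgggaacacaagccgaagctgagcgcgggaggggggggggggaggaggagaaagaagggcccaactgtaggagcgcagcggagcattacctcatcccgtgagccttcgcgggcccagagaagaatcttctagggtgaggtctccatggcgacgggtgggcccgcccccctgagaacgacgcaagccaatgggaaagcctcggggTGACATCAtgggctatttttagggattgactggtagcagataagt
The match lies 79 to 71 bases before the start in *Fosl2*, 50 to 42 bases before it in *Fosb* and 45 to 38 bases before it in *Jun*.

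Within the FOS family, the direction of the difference varied by gene. *Fosl2* (ENSMUSG00000029135), which encodes FRA-2, a FOS relative without the strong activation domain of FOS, had 1395, 1049 and 758 normalized counts in control tumors 1, 2 and 3 and 1543, 1501 and 1826 in FF-10101 tumors 1, 2 and 3. Its groups did not overlap, and it was the single member of which this was true (1 of 10 higher, where 10.9% of all genes lay higher without overlap, and 0 lower, where 9.37% did). Under 75th percentile scaling and under quantile normalization, the groups of *Egr1* did not overlap either. Without control tumor 1 there were 6 such members, beside 54.1% of all genes. The means of *Fosl2* were 1067 ± 319 and 1624 ± 176 (SD, n = 3 each), a ratio of 1.52. The log2 fold change was 0.64 (standard error 0.23, 95% interval 0.12 to 1.17, limma adjusted p = 0.255). A two-sided exact permutation test gave p = 0.1, the smallest p for 3 tumors against 3. Over the fits that leave out 1 tumor it ranged from 0.42 to 0.86, with 0.86 (limma adjusted p = 0.0135) without control tumor 1.

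*Fosl1* (ENSMUSG00000024912), which encodes FRA-1, the AP-1 subunit linked to invasion of mesenchymal cancer cells, was lower. It had 249, 898 and 839.7 normalized counts in the control tumors and 413, 241 and 342 in the FF-10101–treated tumors. Control tumors 2 and 3 were above every treated tumor, and control tumor 1 lay among the treated tumors. The means were 662 ± 359 and 332 ± 86.5 (SD, n = 3 each). The log2 fold change was −0.82 (standard error 0.48, 95% interval −1.92 to 0.28, limma adjusted p = 0.421), and the exact two-sided permutation p was 0.3. Without control tumor 1 it was −1.42 (standard error 0.22, limma adjusted p = 0.00569), and without control tumor 2 it was −0.49. The sum of 5 proliferation genes had a like placing of the tumors, with 4270 normalized counts in control tumor 1, 7312 and 7577 in control tumors 2 and 3 and 3546 to 5506 in the treated tumors; 0 of these 5 genes were higher in mean under treatment. So did the sum of 5 epithelial keratin and adhesion genes, at 245, 1321 and 1236 in the control tumors and 189 to 246 in the treated tumors. That sum was carried by *Krt8* (0, 454 and 491 in the control tumors) and *Krt18* (55.2, 717 and 643), while *Cdh1* was highest in control tumor 1 (176, 147 and 98.7) and *Epcam*, with few reads, was higher after treatment (means of 3.33 and 10.54). Their part in the values of *Fosl1* was not tested.

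*Fos* (ENSMUSG00000021250), the founding member and a transcript of very short life, had 445, 139 and 187 normalized counts in the control tumors and 328, 230.2 and 326 in the FF-10101–treated tumors. Control tumor 1 was the highest of the 6 and control tumor 2 the lowest, so that the groups overlap fully. The log2 fold change was 0.36 (standard error 0.41, 95% interval −0.58 to 1.30, limma adjusted p = 0.676). It was 0.85 without control tumor 1 (limma adjusted p = 0.0335) and 0.011 without control tumor 2. *Fosb* (ENSMUSG00000003545), the member with the fewest reads, had 61, 27 and 27 reads before normalization in the controls, and 72, 53 and 39 after FF-10101. These are 68.7, 29.3 and 29.9 normalized counts against 55.0, 57.5 and 34.7, a pattern with control tumor 1 again on top. Its log2 fold change was 0.28 (standard error 0.42, limma adjusted p = 0.756), 0.67 without control tumor 1 (limma adjusted p = 0.180), 0.074 without control tumor 2 and 0.056 under quantile normalization.

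Since these 4 proteins compete for the same JUN partners, the makeup of the family was also compared, as shares of its normalized counts per kilobase of the longest annotated transcript. In control tumors 2 and 3, *Fosl1* gave 67.3% and 67.9% of the FOS family transcripts and *Fosl2* 22.4% and 17.5%. In the FF-10101–treated tumors, *Fosl1* gave 35.3%, 26.7% and 29.3% and *Fosl2* 37.6%, 47.5% and 44.6%. Control tumor 1 had 23.2% *Fosl1*, below every other tumor, and 37.0% *Fosl2*, just below the treated tumors. The order of these genes depends on the length used. Per kilobase of the mean transcript length, an alternative chosen after seeing the data, *Fosl1* gave 47.6%, 37.8% and 40.9% in the treated tumors and *Fosl2* 30.2%, 40.03% and 37.1%, so that *Fosl1* was the larger in FF-10101 tumors 1 and 3. By that length *Fosl1* gave 33.5%, 77.4% and 77.9% in control tumors 1, 2 and 3 and *Fosl2* 31.9%, 15.4% and 11.9%. Per longest transcript, the share of *Fos* was 36.6%, 9.22% and 13.4% in the control tumors and 24.8%, 22.6% and 24.7% in the treated tumors, and *Fosb* gave at most 3.15% in any tumor. The family total per kilobase was 652 ± 70.6 in the control and 579 ± 83.2 in the treated tumors (SD, n = 3 each). The plain ratio of *Fosl1* to *Fosl2* normalized counts, chosen after the values were seen and given without a test, was 0.178, 0.856 and 1.11 in the control tumors and 0.268, 0.161 and 0.187 in the treated tumors.

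**Figure D2:**
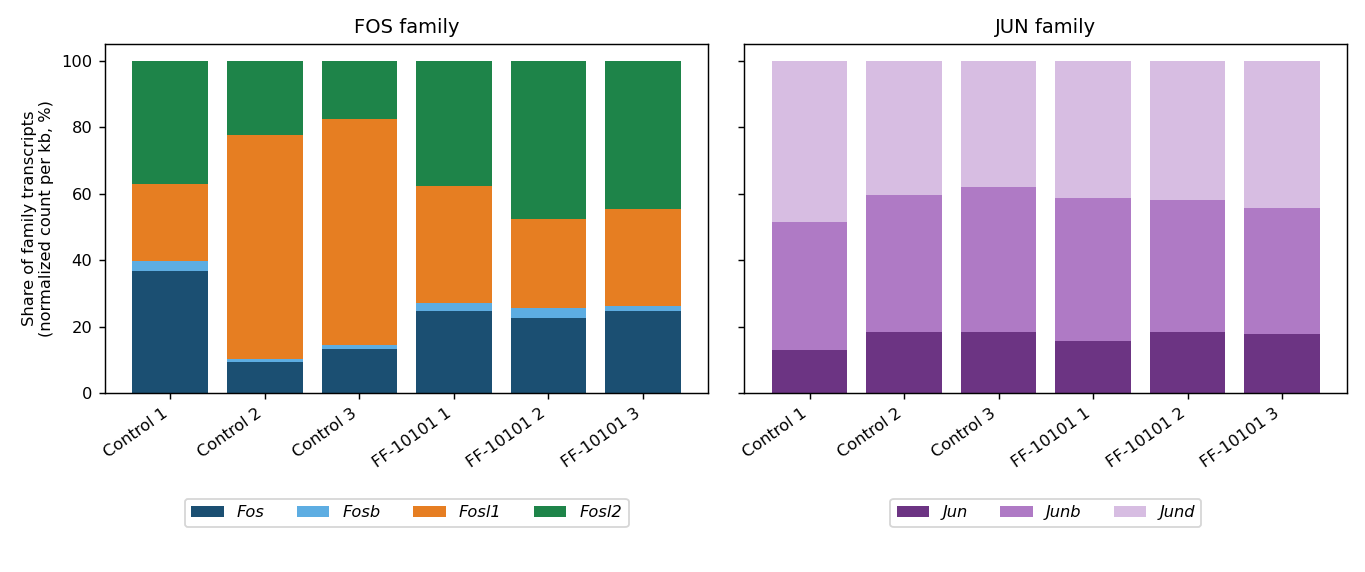
Share (percent, y axis) of each FOS gene (left) and JUN gene (right) in its family, as normalized counts per kilobase of the longest transcript, in each tumor (x axis). *Fosl1* takes 67.3% and 67.9% of the FOS family in control tumors 2 and 3 and 23.2% to 35.3% in the other 4 tumors, while the JUN shares vary less over the 6 tumors.

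The JUN genes, the obligate partners in AP-1, had the 3 log2 fold changes nearest to 0 among the members. *Jun* (ENSMUSG00000052684) had 1607, 1480.1 and 1581 normalized counts in the control tumors and 1540.4, 1348 and 1419.5 in the FF-10101–treated tumors. FF-10101 tumor 1 lay inside the control range and the other treated tumors below it. The log2 fold change was −0.12 with a 95% interval of −0.42 to 0.19 (limma adjusted p = 0.681), −0.093 without control tumor 1 and between −0.17 and −0.073 over all omissions of 1 tumor. The SD within groups of *Jun* on the log2 scale was 0.082, lower than in all but 2.32% of the genes tested. *Junb* (ENSMUSG00000052837), an AP-1 subunit with weaker activity than JUN, had 2706, 1880.0 and 2143 normalized counts in the control and 2426, 1636 and 1706 after treatment (log2 fold change −0.23, 95% interval −0.71 to 0.26, limma adjusted p = 0.605). That value was −0.085 without control tumor 1, and −0.41 if FF-10101 tumor 1 was dropped. *Jund* (ENSMUSG00000071076), the JUN gene that most cells express without a stimulus, had 3152, 1701 and 1715 normalized counts against 2138, 1600.2 and 1838. Its log2 fold change was −0.18 (95% interval −0.78 to 0.42, limma adjusted p = 0.743), and turned to 0.11 without control tumor 1. Within the JUN family the mean shares per kilobase of the 2 groups lay close, at 16.6% ± 3.11 and 17.3% ± 1.55 for *Jun*, 41.1% ± 2.64 and 40.2% ± 2.72 for *Junb*, and 42.3% ± 5.56 and 42.5% ± 1.57 for *Jund* in the control and treated tumors (SD, n = 3 each).

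*Egr1* (ENSMUSG00000038418), the EGR member of the group, had the largest log2 fold change of the 10. It had 691, 347 and 336 normalized counts in the control tumors and 1039, 725 and 677 in the FF-10101–treated tumors. Control tumor 1 lay just above the lowest treated tumor, FF-10101 tumor 3, and control tumors 2 and 3 were well below every treated tumor. The means were 458 ± 202 and 814 ± 197 (SD, n = 3 each), a ratio of 1.78. The log2 fold change was 0.89 (standard error 0.31, 95% interval 0.18 to 1.59, limma adjusted p = 0.252), and the exact two-sided permutation p was 0.2. Leaving out control tumor 1 gave 1.23 (limma adjusted p = 0.00626), and leaving out any other tumor gave 0.70 to 1.01. The other EGR genes had lower counts: *Egr2* had 113 ± 51.5 and 132 ± 12.3 normalized counts (SD, n = 3 each) and *Egr3* 79.3 ± 34.7 and 101 ± 18.2, with log2 fold changes of 0.34 and 0.41 (limma adjusted p = 0.656 and 0.554). With 1 tumor left out these ranged from −0.074 to 0.65 for *Egr2* and from 0.24 to 0.74 for *Egr3*. *Egr4* had 0 reads in each tumor, which allows up to 3 reads a tumor by counting error. *Nab1* and *Nab2*, corepressors that bind EGR1, had groups that did not overlap, the treated tumors being higher, with log2 fold changes of 0.42 and 0.33 (limma adjusted p = 0.273 and 0.320). *Nab1* had 736, 814 and 673 normalized counts against 861, 1007 and 1107, and *Nab2* 745, 646 and 598 against 786, 859 and 843.

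*Atf3* (ENSMUSG00000026628), a stress-induced factor that pairs with JUN proteins and restrains inflammatory genes in macrophages, had 352, 189 and 171 normalized counts in the control tumors and 287, 320.3 and 375 in the FF-10101–treated tumors. Control tumor 1 lay between FF-10101 tumors 2 and 3, and control tumors 2 and 3 were below all treated tumors. The log2 fold change was 0.53 (standard error 0.29, 95% interval −0.13 to 1.19, limma adjusted p = 0.386). It was 0.85 without control tumor 1 (limma adjusted p = 0.0147), and dropping control tumor 3 gave 0.33. *Ier2* (ENSMUSG00000053560), a nuclear protein induced by serum that does not itself form AP-1, had 878, 640.1 and 909.6 normalized counts in the control and 901, 569 and 611 in the treated tumors. These groups overlap, with a log2 fold change of −0.24 (95% interval −0.76 to 0.29, limma adjusted p = 0.621). It was −0.17 without control tumor 1, and over all 6 such omissions lay between −0.44 (FF-10101 tumor 1) and −0.11 (FF-10101 tumor 2).

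**Figure D3:**
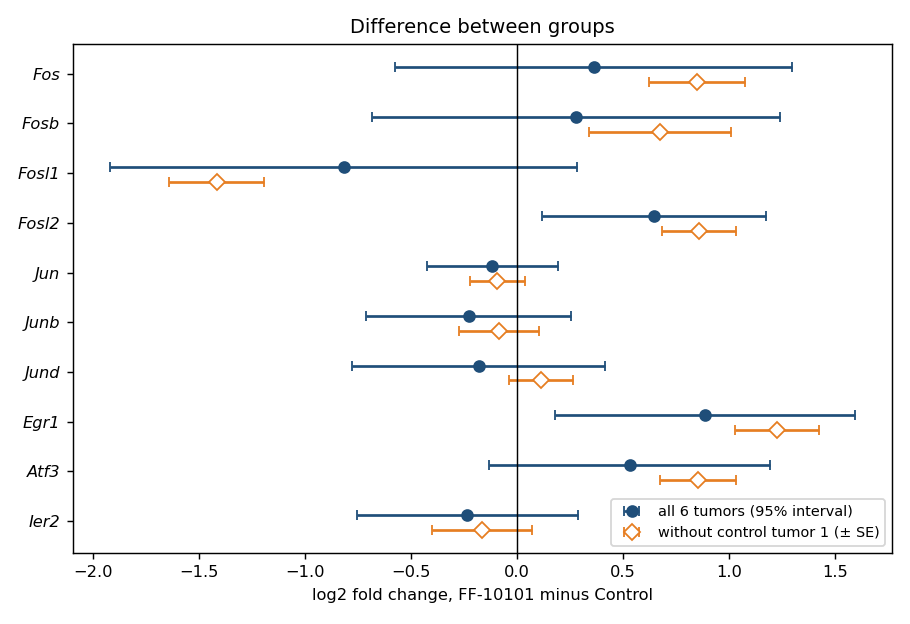
Log2 fold change (x axis, FF-10101 minus Control) of each gene. Filled circles are from all 6 tumors with 95% intervals, and open diamonds are without control tumor 1 with standard errors. *Egr1* at 0.89 and *Fosl2* at 0.64 are the members whose 95% interval lies above 0, and *Jun* at −0.12 has the narrowest interval.

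Across the 6 tumors, the members did not share 1 pattern. Control tumor 1 was the highest tumor for 5 of the 10 genes and the lowest for 0, while FF-10101 tumor 2 was the lowest for 5. Control tumor 1 was above both other control tumors in 8 of 10 members and below both in 1, *Fosl1*. It lay inside the range of the treated tumors for 4 of 10 members, as it did for 40.9% of all genes tested. The range from the lowest to the highest tumor was 3.72-fold for *Fosl1*, 3.20-fold for *Fos*, 3.09-fold for *Egr1* and 1.19-fold for *Jun*. The SD within groups on the log2 scale was above that of the median gene in 8 of the 10, at 0.79 for *Fosl1* (percentile 91.0 of all genes tested) and 0.65 for *Fos* (percentile 85.4). The exceptions were *Jun* and *Junb* (percentile 48.5).

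**Figure D4:**
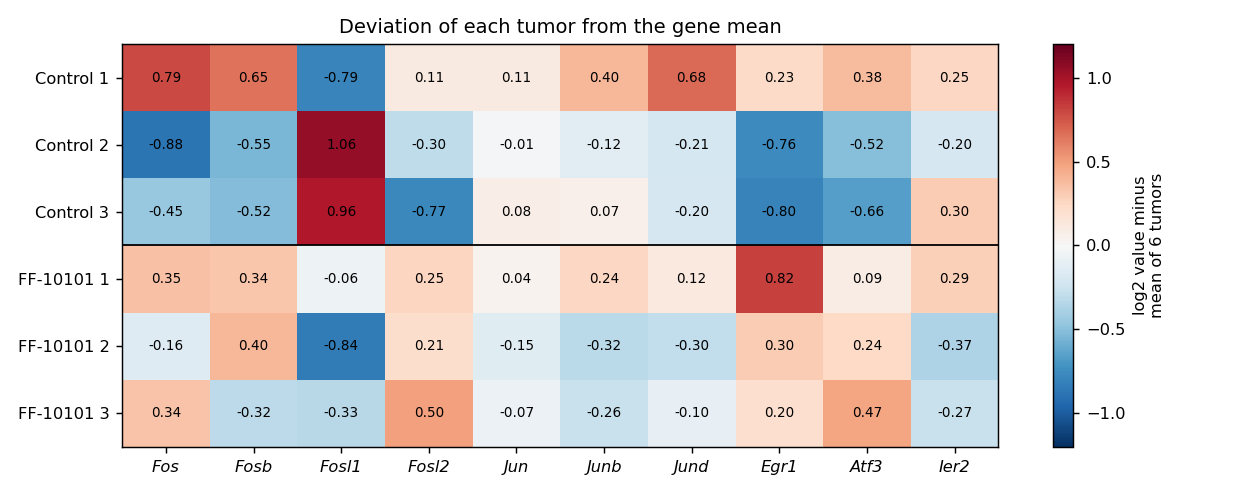
Log2(normalized count + 1) of each tumor (rows) minus the mean of the 6 tumors for each gene (columns); red is above and blue below the mean. Control tumor 1 is at 0.79 for *Fos* and −0.79 for *Fosl1*, where control tumor 2 is at −0.88 and 1.06.

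Levels can be ranked between genes only per length. In normalized counts per kilobase of the longest transcript, averaged over the 6 tumors, *Jund* (1213) and *Junb* (1151) stood first, followed by *Ier2* (494), *Jun* (469), *Fosl1* (267), *Fosl2* (206), *Atf3* (142.4), *Egr1* (141.8), *Fos* (131) and *Fosb* (12.1). The lowest tumor for *Junb*, at 904, was above the highest tumor for *Ier2*, at 598, and the lowest tumor for *Fos*, at 66.0, was above the highest for *Fosb*, at 18.2. The other neighbors in this order overlap in their ranges over the tumors. The middle of the order differed by group. In the control tumors it was *Fosl1* (355), *Fosl2* (163), *Fos* (122), *Atf3* (120) and *Egr1* (102). In the treated tumors it was *Fosl2* (248), *Egr1* (182), *Fosl1* (178), *Atf3* (165) and *Fos* (140). With the mean transcript length in place of the longest, *Egr1* moved above *Atf3* and the order was otherwise the same. By this measure *Jund* was above 95.3% of the genes tested and *Fosb* above 10.9%. The genes nearest to the members' mean profile over the 6 tumors included *mt-Co3*, *Coq8b*, *BC031181* and *H3f3b*. Their root mean square differences were 0.033 to 0.061 on the log2 scale, where the median gene had 0.371. That profile averages members that go both ways, with an SD of 0.22 over the tumors, so it stands for no single member. Chosen after the values were seen, *Irf1*, an interferon-induced factor, and *Ccn1*, an immediate early matrix protein, were among the 5 nearest to *Egr1* (0.111 and 0.124), and *Hif1a*, the hypoxia factor, among the 5 nearest to *Fosl2* (0.083).

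Of 38 other immediate early genes, 37 were tested, and 0 passed an adjusted p of 0.05 in either direction with limma. By the sign of the log2 fold change, as all lists other than markers are counted here, 26 were higher and 11 lower. Their median log2 fold change was 0.27, and 0.49 without control tumor 1. At an unadjusted p of 0.05, 3 were higher (*Ccn1*, *Sgk1* and *Ets2*) and 1 was lower (*Rhob*), beside 8.77% and 7.49% of all genes. *Dusp1*, the phosphatase that turns off MAP kinases, had 842, 228 and 192 normalized counts in the control and 610.2, 553 and 837 in the treated tumors, a log2 fold change of 0.98 (limma adjusted p = 0.374), which ranged from 0.58 (control tumor 3 dropped) to 1.64 (control tumor 1 dropped). *Nr4a1*, an orphan nuclear receptor, and *Zfp36*, which destabilizes cytokine transcripts, showed the same placing of control tumor 1, with 317, 162 and 146 against 288, 214 and 284 for *Nr4a1* and 1219, 587 and 483 against 1059, 766 and 868 for *Zfp36*. *Ccn1* had a log2 fold change of 0.77 (limma adjusted p = 0.275). *Rhob*, a small GTPase, was at 1714 ± 82.9 in the control and 1302 ± 33.8 in the treated tumors (SD, n = 3 each; log2 fold change −0.40, limma adjusted p = 0.241), and *Gadd45a*, a growth arrest gene, had −0.45 (limma adjusted p = 0.326). The groups of both did not overlap, and those of *Ets2* and *Arc* did not either, with the treated tumors higher. So 2 of the 37 lay higher and 2 lower without overlap, beside 10.9% and 9.37% of all genes. Without control tumor 1, 14 of the 37 passed an adjusted p of 0.05 as higher, *Dusp1*, *Nr4a1*, *Zfp36* and *Ccn1* among them, and 1 as lower, *Rhob*, beside 12.0% and 9.88% of all genes in the same fit.

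Genes raised by ERK that feed back on it or mark its activity were lower by log2 fold change in 13 of 13. Of the 13963 genes tested, 6711 were lower. The median log2 fold change of the 13 was −0.42, and 0 passed an adjusted p of 0.05 with limma. At an unadjusted p of 0.05, 3 were lower, *Dusp4*, *Dusp6* and *Etv5*, beside 7.49% of all genes. *Etv5*, an ETS factor, had 527, 755 and 646 normalized counts in the control and 338, 286 and 352 in the treated tumors, so that its groups did not overlap (log2 fold change −0.97, SE 0.18, limma adjusted p = 0.229). *Dusp4*, an ERK phosphatase, had 127, 161 and 102 against 70.3, 60.8 and 101 (log2 fold change −0.75, limma adjusted p = 0.273). The sign of 3 of the 13 turned with 1 tumor: *Dusp5*, at −0.048, and *Spry2*, at −0.13, turned to 0.31 and 0.019 without control tumor 1, and *Spred2*, at −0.076, to 0.021 without control tumor 2. Without control tumor 1, 0 of the 13 passed as higher and 4 as lower (*Dusp6*, *Spry1*, *Etv4* and *Etv5*), beside 12.0% and 9.88% of all genes. Of the 22 upstream kinases, SRF cofactors and EGR corepressors, 14 were higher and 8 lower by log2 fold change. Their median log2 fold change was 0.058, and 0.145 without control tumor 1. With limma, 0 of the 22 passed an adjusted p of 0.05. At an unadjusted p of 0.05, 2 were higher and 1 was lower, beside 8.77% and 7.49% of all genes. *Srf* had 689, 1155 and 1089 normalized counts in the control and 674, 511 and 457 in the treated tumors, which gave −0.82 on the log2 scale (limma adjusted p = 0.229) and −1.05 without control tumor 1 (limma adjusted p = 0.00778). Of the kinases, *Map2k4*, which activates JNK, had a log2 fold change of 0.45 and *Map2k1*, which activates ERK, of −0.32 (limma adjusted p = 0.241 and 0.318), in both cases with groups that did not overlap. In the fit without control tumor 1, 1 of the 22 passed as higher, *Map2k4* at 0.51 (limma adjusted p = 0.0358), and 1 as lower, *Srf*, beside 12.0% and 9.88% of all genes.

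**Figure D5:**
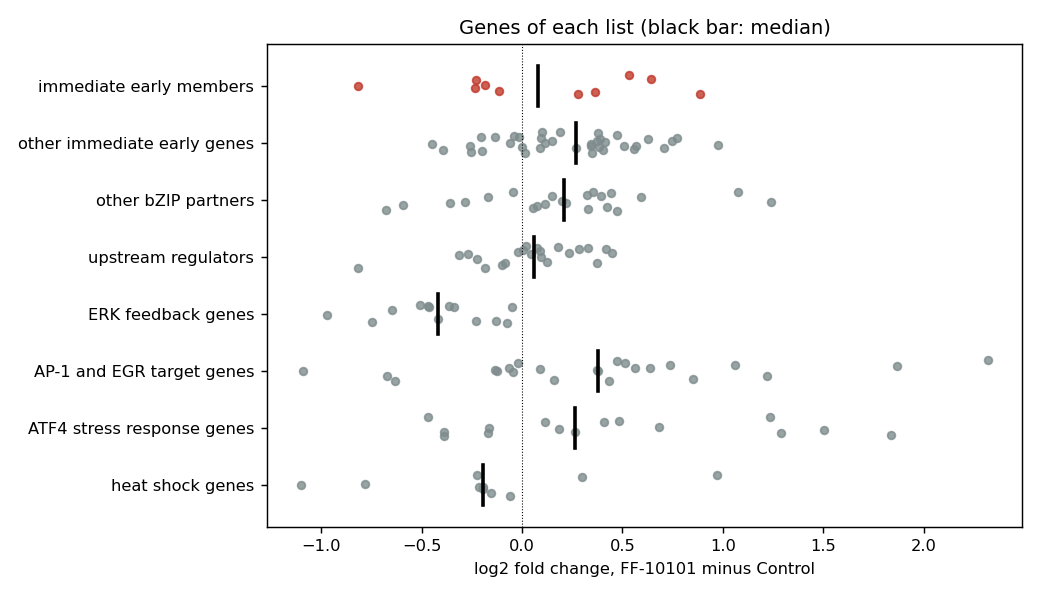
Log2 fold change (x axis, FF-10101 minus Control, all 6 tumors) of each tested gene in 8 lists (rows), with the median as a black bar; vertical scatter has no meaning. The 13 ERK feedback genes lie below 0 with a median of −0.42, and the 10 members (red) spread from −0.82 to 0.89.

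The products of 22 other basic leucine zipper genes can pair with FOS or JUN proteins or bind related elements. Of these genes, 16 were higher and 6 lower by log2 fold change. Their median log2 fold change was 0.21, and 0.42 without control tumor 1. With limma, 0 of the 22 passed an adjusted p of 0.05. At an unadjusted p of 0.05, 2 were higher and 2 lower, beside 8.77% and 7.49% of all genes. *Batf2*, an interferon-induced JUN partner, had 341, 106 and 63.2 normalized counts in the control and 282, 256 and 302 in the treated tumors (log2 fold change 1.07, limma adjusted p = 0.355). It ranged from 0.55 to 1.75 with 1 tumor left out. *Mafa*, with at most 23.9 normalized counts, had 1.24 (limma adjusted p = 0.473), with values of 0.55 with a pseudocount of 10, 0.67 under quantile normalization and 0.38 on the deposited scale, where *Batf2* had 1.01, 1.02 and 0.85. With control tumor 1 left out, 8 of the 22 passed an adjusted p of 0.05 as higher and 1, *Mafg*, as lower (12.0% and 9.88% of all genes), with *Batf2* at 1.75 and *Mafa* at 2.11. *Batf3*, a JUN partner needed by cross-presenting dendritic cells, had 143, 81.5 and 99.8 against 55.8, 82.5 and 60.4 (log2 fold change −0.68, limma adjusted p = 0.306). *Maf*, a macrophage factor, had 1994, 1966 and 1529.7 against 1101, 1095 and 1448, without overlap (log2 fold change −0.59, limma adjusted p = 0.229). The sum of 9 macrophage markers was 66770.3 to 104642 normalized counts in the control and 35280 to 55848 in the treated tumors. These groups did not overlap either, and 1 of the 9 genes was higher in mean. Most of the sum came from *Lyz2*, *C1qa*, *C1qb* and *C1qc*, which like *Adgre1* were lower without overlap. The groups of *Csf1r*, *Cd68*, *Fcgr1* and *Mertk* overlapped. Their log2 fold changes were −0.25, −0.13, −0.10 and 0.14, and 0.14, 0.28, 0.30 and 0.33 without control tumor 1. The part of this sum in the values of *Maf* was not tested. *Atf4*, the partner of *Atf3* in the amino acid stress response, differed little, at 3057 ± 373 and 3324 ± 519 (SD, n = 3 each; log2 fold change 0.12, limma adjusted p = 0.754).

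Among 25 known target genes of AP-1 and EGR1, 23 were tested; 15 were higher and 8 lower by log2 fold change, with a median log2 fold change of 0.38 and 0 past an adjusted p of 0.05 with limma. At an unadjusted p of 0.05, 6 were higher and 1, *Plau*, was lower, beside 8.77% and 7.49% of all genes. *Mmp13*, a collagenase gene, had 245, 58.7 and 45.5 normalized counts in the control and 863, 313 and 314 in the treated tumors, without overlap (log2 fold change 2.32, SE 0.66, limma adjusted p = 0.229). *Mmp3*, the stromelysin gene, had 890.4, 110 and 176 against 583, 866 and 1681 (log2 fold change 1.87, limma adjusted p = 0.283). *Plau*, the urokinase gene, went the other way, at 1251, 1304 and 1243 against 759.9, 493 and 560.0, which is −1.09 on the log2 scale (SE 0.18, limma adjusted p = 0.184). Control tumor 1 had as much *Plau* as the other control tumors, and the log2 fold change without it was −1.098 (limma adjusted p = 0.00807). *Areg*, an EGF receptor ligand, had 25.4 ± 8.57 and 15.02 ± 1.73 (SD, n = 3 each; log2 fold change −0.67, limma adjusted p = 0.437, and −0.89 to −0.43 with 1 tumor left out). Without control tumor 1, 8 of the 23 passed as higher and 2, *Plau* and *Ccnd1*, as lower, beside 12.0% and 9.88% of all genes. Those higher included *Mmp13* at 3.06 and *Mmp3* at 2.76 (limma adjusted p = 0.00378 and 0.00459), which with any other tumor dropped had at least 1.83 and 1.25.

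*Atf3* is also a gene of the ATF4 stress response, and heat shock genes mark another stress pathway. Of 16 ATF4 response genes, 15 were tested, 10 were higher and 5 lower by log2 fold change, and 0 passed an adjusted p of 0.05 with limma. At an unadjusted p of 0.05, 4 were higher and 1 was lower, beside 8.77% and 7.49% of all genes. The largest differences were those of *Slc7a11*, the cystine transporter, at 61.1 ± 30.3 and 214 ± 75.04 normalized counts (SD, n = 3 each; log2 fold change 1.84, limma adjusted p = 0.229), and *Vldlr*, a lipoprotein receptor, at 1.505 (limma adjusted p = 0.303). *Eif4ebp1*, a translation repressor, and *Asns*, asparagine synthetase, had −0.47 and −0.39 (limma adjusted p = 0.238 and 0.360). If control tumor 1 was left out, 6 of the 15 passed an adjusted p of 0.05 as higher (*Ddit3*, *Vldlr*, *Slc7a11*, *Nupr1*, *Cebpg* and *Aldh1l2*) and 1, *Ddit4*, as lower (12.0% and 9.88% of all genes), with *Vldlr* at 2.26 (limma adjusted p = 0.00709). Over all omissions of 1 tumor *Vldlr* ranged from 0.97 to 2.26 and *Asns* from −0.52 to −0.26. Of 10 heat shock genes, 2 were higher and 8 lower by log2 fold change, with a median log2 fold change of −0.19. With limma, 0 of the 10 passed an adjusted p of 0.05. At an unadjusted p of 0.05, 0 were higher and 2 lower, beside 8.77% and 7.49% of all genes. *Hspa1b* had 1852, 662 and 488 normalized counts in the control and 1899, 1488 and 1589 in the treated tumors (log2 fold change 0.97), and *Hspa1a*, a near-identical copy whose reads are uncertain for that reason, had 65.5 ± 13.9 and 30.8 ± 11.2 (log2 fold change −1.10; limma adjusted p = 0.324 and 0.235). When control tumor 1 was left out, *Hspa1b* passed an adjusted p of 0.05 as higher, at 1.54, and *Hspa1a* and *Hspe1* as lower, at −1.24 and −1.07 (12.0% and 9.88% of all genes). With all tumors, *Hspe1*, a mitochondrial chaperone, had −0.78 and *Bag3*, a cochaperone, 0.30 (limma adjusted p = 0.258 and 0.605); *Hspa1b* ranged from 0.58 to 1.54 over the omissions and *Bag3* from 0.050 without control tumor 3 to 0.56 without control tumor 1.

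Markers of several cell types differed between the tumors beside the members. The sum of 8 neutrophil markers was 588 to 1245 normalized counts in the control and 1520 to 2282 in the FF-10101–treated tumors, without overlap. In mean, 7 of the 8 were higher. Of the 7, *Ly6g* was not tested, at 0.764 normalized counts in FF-10101 tumor 1 and 0 in every other tumor. Groups did not overlap for *S100a8*, *S100a9* and *Cxcr2*, and did for *Retnlg*, *Csf3r* and *Mmp8*. *G0s2* was lower (means of 28.6 and 15.3). The sums of 5 NK cell markers (272 to 953 and 625 to 1148) and of 7 T cell markers (761 to 2218 and 997 to 2091) overlapped between the groups and were highest among the control tumors in control tumor 1, as *Fos*, *Egr1* and *Atf3* were. The 6 endothelial markers were higher in mean in 6 of 6, and 3 of 6 pericyte and smooth muscle markers were, with sums of 3081 to 6703 in the control and 3554 to 4200.5 in the treated tumors. Genes of tissue next to the tumor were read in each group: 9 skeletal muscle genes summed to 3207 to 6945 and 3194 to 12328 normalized counts, 6 adipocyte genes to 251 to 522 and 270.4 to 1195, and 7 keratinocyte genes to 42.4 to 203 and 33.8 to 994. The highest muscle sum was in FF-10101 tumor 2, the lowest treated tumor for *Fos* but the highest treated tumor for *Fosb*. The highest keratinocyte sum, mainly *Krt5* (396) and *Krt14* (484), was in FF-10101 tumor 1. That tumor was the highest for 1 of the 10 members, *Egr1*. The 4 B cell markers summed to 46.2 to 68.5 and 39.1 to 71.1. The part of these cells in the values of the immediate early genes was not tested.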

How the data were processed

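Bulk RNA was sequenced from 6 MCA205 tumors, 3 Control and 3 FF-10101, grouped by the sample titles. Per the labels and the study's methods, the authors trimmed reads with fastp 0.19.5, quantified transcripts with Salmon 1.5.1 on GENCODE vM27 (GRCm39) and used DESeq2 1.22.1. They deposited log2 values, 1 per gene and tumor, in the form of a variance-stabilizing transformation, which the sources do not name. Normalized counts had been planned for, so they were recovered first: the inverse gave whole reads for 100% of 325854 values (tolerance 1e-06). Salmon splits reads between similar transcripts by estimation, and 1 read equals 0.764 to 1.13 normalized counts depending on the tumor.

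Genes were named by GENCODE vM21 (51484 identifiers matched); of identifiers sharing a symbol, the one with most reads was used. Groups were compared with limma 3.58.1 in R 4.3.3 (lmFit, eBayes with a trend) on log2(normalized count + 1) over 13963 genes (minimum mean 10), with the group as the sole term and Benjamini-Hochberg adjustment over all of them. The steps were tested on simulated data. The p-values measure the spread between tumors that the series describes as biological replicates. Promoters and transcript lengths came from RefSeq (GRCm38.p6) and GENCODE vM21, another build than the authors used, and served for sequence and length alone.

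The members, lists and tests were chosen with earlier results of these data known. The named genes are the 10 members, from each list that is not a marker list the 2 highest and the 2 lowest log2 fold changes, *Nab1*, *Nab2*, *Srf*, *Nr4a1*, *Dusp1*, *Zfp36*, *Egr2*, *Egr3*, *Batf3* and *Atf4*, and the 5 genes nearest in profile to the members, of which 1 is not reported here; others are named where a count is small. Alternatives: a pseudocount of 0.5 or 10 was set, and further fits used no minimum, a mean of at least 50, 75th percentile scaling, quantile normalization, no trend, array weights, limma-voom on recovered reads, the deposited values directly, a replicate block, and each tumor left out.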

Additional observations from a re-analysis of the deposited data

How the results depend on the processing

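Of 169 values of the 10 members under the alternatives, 157 kept their sign and their side of an adjusted p of 0.05, 11 newly passed it and 1 changed sign (*Jund*, which ranged from −0.33 to 0.11 with 1 tumor left out, 0.11 without control tumor 1). The count of members past 0.05 was 6 with array weights, a fit that rests mainly on control tumor 2 (weight 5.39) and FF-10101 tumor 2 (8.08), the others having 0.139 to 0.859, and 0 to 5 with 1 tumor left out, the 5 without control tumor 1. Over all genes the count was 6, and 17 without a minimum count, 3 with a mean of at least 50, 8365 with array weights and 1 to 3051 with 1 tumor left out. With the replicate block it was 1; same-numbered tumors had correlations of deviations of −0.288, −0.0397 and −0.277, so the numbers do not pair the tumors. The median of the members was −0.12 with a mean of at least 50, where *Fosb* was not tested, −0.028 under quantile normalization and −0.071 to 0.39 with 1 tumor left out; the median of 5 higher and 5 lower genes has no stable sign. Members without overlap numbered 2, *Fosl2* and *Egr1*, under 75th percentile scaling and under quantile normalization, where 20.3% and 20.1% of all genes had none, and 1 to 6 with 1 tumor left out. The 6 of 10, without control tumor 1, stand beside 54.1% of all genes, against 23.8% to 39.2% with any other tumor left out. Of 575 values of 34 other named genes, 6 changed sign: *Dusp5* (0.12 with array weights, −0.24 to 0.31 with 1 tumor left out, the 0.31 without control tumor 1; 0.041 when FF-10101 tumor 2 was dropped), *Spred2* (−0.16 to 0.021, without control tumor 2), *Egr2* (−0.074, without control tumor 3, to 0.65) and *Atf4* (−0.0057, without FF-10101 tumor 1, to 0.21). Beyond the settings' own construction, the cause was not tested. With 3 tumors a group and reads of *Fosb* down to 27, small changes were not detectable.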
